A study of Mus musculus with 2 samples.

Results

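Long noncoding RNAs held 1484 of the 160430 positions at which any of 10 tools placed N6-methyladenosine (m6A) in nanopore direct RNA sequencing of mouse embryonic stem cells. A position was taken as a member when it lay in an exon, on the same strand, of a gene that GENCODE types as lincRNA, antisense, processed_transcript, sense_intronic, sense_overlapping, bidirectional_promoter_lncRNA or lncRNA, and in no exon of a protein-coding gene on that strand. Chromosomes X and Y were left out, and a further 251 positions were left out because the long noncoding exon overlapped a coding gene. The members fell in 250 genes and made up 0.949% of the 156350 positions outside X and Y, against 152921 positions in coding exons. The choice used only the annotation, not the number of tools or the library.

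The RNA was poly(A) RNA of mouse 129 embryonic stem cells, either wild-type (WT) or edited with CRISPR-Cas9 to disrupt the methyltransferase gene Mettl3 (KO). The edited gene lacks its exons 5 to 7 and carries drug selection markers there (hygromycin, puromycin). Each condition had 1 library, so no difference between WT and KO has a replicate check. A WT list and a separate KO list came from each of 7 tools, of which Epinano, ELIGOS, m6Anet, Nanom6A, MINES and Tombo call sites in a single sample and xPore models both samples. DRUMMER, DiffErr and Nanocompore contrasted the libraries and gave 1 comparison list each. WT and comparison lists are called merged below when they are pooled. A list gives positions and no score, methylation rate or read number, so a gene that is missing from a list may have had fewer reads or fewer called sites, and these cannot be told apart. All 8 embryonic stem cell markers had merged positions (6 to 50 each), against 1 of 6 fibroblast markers and 1 of 4 primitive endoderm markers. These were Thy1 with 3 merged positions and 1 in KO and Sox17 with 12 and 0, while the fibroblast marker Col1a1 had 0 merged positions and 3 in KO. The part of other cell types in the lists was not tested. The replaced Mettl3 exons had 2 merged positions and 0 KO positions.

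m6A is written on adenosines by the METTL3-METTL14 complex, mostly in a context of a pair of purines, the adenosine, a cytosine and then any base but guanine (RRACH), with GGACT as its best known form. It is removed by demethylases and read by YTH-domain proteins, which affect the stability, export and nuclear handling of RNA. Long noncoding RNAs carry no long open reading frame, and several act in the nucleus, as architectural RNAs of nuclear bodies or as hosts of small nucleolar RNAs and microRNAs. Malat1, an RNA of nuclear speckles, is among the best known m6A carriers of this class.

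The positions named by most tools are shown first, because they were chosen by the number of tools and their context can be read beside that number. All merged positions listed by at least 6 of the 10 tools are given from 5′ to 3′ of the RNA, read from the GRCm38 genome, with the 5 bases around the listed adenosine in capitals.
Cct6a (chr5:129845914-129845942, plus strand): agaaaagaaacgGGACAtttgacacctat
1810058I24Rik (chr6:35261470-35261498, plus strand): gcaaccatgacaGGACTcactcgcctgtg
1810058I24Rik (chr6:35261543-35261571, plus strand): gatagctgctggGGACTcactgtctagca
Sp3os (chr2:72988496-72988524, plus strand): tttgaagaagatGGACTcacatgagcaca
2500002B13Rik (chr8:57506593-57506621, plus strand): gagataggctgaGGACTtattaaacagaa
Lncenc1 (chr13:97494502-97494530, plus strand): tctggagattatGGACAgaagataatgta
Lncenc1 (chr13:97495050-97495078, plus strand): tcttacctgggaGGACAatggggaagggc
Lncenc1 (chr13:97495155-97495183, plus strand): catcatcgagtgGGACTcctttttacatt

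At 8 of 1038 merged member positions at least 6 tools agreed on the base (0.771%, 95% Wilson interval 0.391 to 1.51), beside 2.01% of all merged positions outside X and Y and 2.04% of those in coding genes. The contexts of these 8 were GGACT or GGACA only. The Cct6a position, 129845928, was listed by 9 tools, which were all 7 tools with a WT list together with DiffErr and DRUMMER. It was also listed in KO by Tombo, MINES and Nanom6A. The first 1810058I24Rik position, 35261484, was listed by 9 tools including all 3 comparison tools, and its only KO listing was from Tombo. The second, 35261557, lay 73 bases downstream, was listed by 8 tools and had 1 KO listing, from Nanom6A. In Sp3os, a transcript antisense to the transcription factor gene Sp3, 6 tools including xPore listed position 72988510, and Tombo alone listed it in KO. In 2500002B13Rik, 5 single-sample tools and DRUMMER listed position 57506607, and no KO list held it. Lncenc1, a long noncoding RNA abundant in naive embryonic stem cells, supplied the remaining 3 positions, each listed by all 6 single-sample tools and by none of xPore and the comparison tools. Of these, 97494516 was in no KO list, 97495064 was in the KO list of Tombo and 97495169 was in those of Tombo and MINES.

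The type given by GENCODE did not always match RefSeq, and this touched the best supported sites. Of the 250 genes, 191 were found in RefSeq, where 159 were typed lncRNA, 24 protein_coding and 8 pseudogene or transcribed pseudogene. The 24 genes held 208 members, among them Cct6a, which encodes a subunit of the cytosolic chaperonin, and 1810058I24Rik, from which a mitochondrial micropeptide is known. Of the 16 positions listed by at least 5 tools, 5 lay in such genes. The other 226 genes held 1276 members, and leaving out the 24 genes changed none of the calls on shares below.

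A second limit concerned strand. At 86 members the base context on the listed strand was not RRACH, and at 85 of these the opposite strand read RRACH at the same base. All 86 came from Nanom6A alone. Opposite-strand positions made up 28.9% of the Nanom6A WT members (76 of 263, 95% Wilson interval 23.8 to 34.6) and 26.3% of the KO members (50 of 190), against 0.692% and 0.846% of its positions in coding genes. They filled 23 genes completely, including Gm26825 with all 22 of its positions and AY036118 with all 12, of which 7 were at the coordinates of positions listed on the opposite strand in Gm42418. All 12 AY036118 positions also lay in an exon of a gene typed rRNA. Gm26825 and AY036118 are therefore described as lists of positions only, and their strand is doubtful.

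Per list, the members ranged from 577 positions in Tombo KO to 2 in Nanocompore. Tombo listed 555 members in WT (0.755% of that list outside X and Y) and 577 in KO (0.868%). Nanom6A listed 263 (0.802%) and 190 (0.698%), MINES 87 (0.663%) and 75 (0.813%), and m6Anet 115 (0.499%) and 51 (0.382%). Epinano listed 428 in WT (0.986%) and 214 in KO (1.46%), ELIGOS 32 (0.542%) and 28 (1.85%), and xPore 13 (0.246%) and 6 (0.255%). As a share of the list, members were thus higher in KO for 5 of the 7 tools, a difference that was not tested. The comparison tools listed few members, with 2 for Nanocompore (0.096%), 4 for DiffErr (0.231%) and 5 for DRUMMER (0.398%). Their lists were also short, with 2084, 1734 and 1255 positions outside X and Y. Tombo was the only tool with more members in KO than in WT. The 28 ELIGOS KO positions came almost entirely from 2410018L13Rik (12) and Gm5165 (14), genes that had 0 ELIGOS positions in WT, and 2 remained elsewhere.

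**Figure D1:**
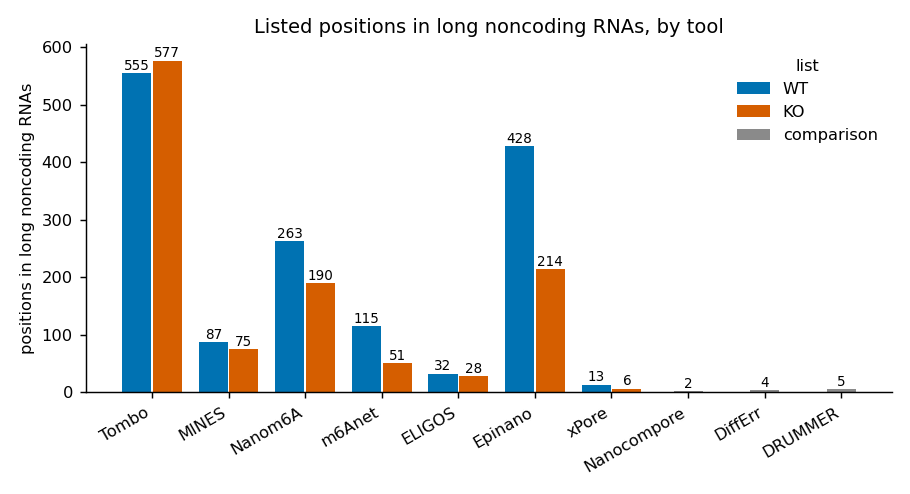
Number of listed positions in long noncoding RNAs (y axis) for each of the 10 tools (x axis), with bars for WT lists, KO lists and comparison lists, and the number above each bar. Tombo and Epinano supplied most positions, and the comparison tools supplied 2 to 5 each.

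Only 6 of the 1038 merged members (0.578%, 95% Wilson interval 0.265 to 1.26) were in a comparison list, beside 2.49% of all merged positions outside X and Y. In coding genes the share was 2.5% (3082 of 123198), and the difference of -1.92 percentage points (95% interval -2.25 to -1.24) passed Fisher's exact test, two-sided, with an adjusted p of 1.48e-05 over the 3 class comparisons of merged positions. Positions of one gene share reads, so p-values over positions are too small, and they compare lists from these libraries and not the conditions. Without the 24 genes that RefSeq types as coding the share was 0.334%, and with both classes limited to genes of at most 10 positions it was 0.397% against 1.95% (adjusted p = 0.0173 by Fisher's exact test, with a range of 2.27e-06 to 0.0173 over the alternatives). Beside the positions of Cct6a, 1810058I24Rik and 2500002B13Rik shown above, a comparison list held 1 position each in Gm31659 and Snhg5, shown here for completeness with the same capitals.
Gm31659 (chr8:95808629-95808657, minus strand): tctgacctctgaGGACAttgtacatgcat
Snhg5 (chr9:88521152-88521180, minus strand): acacagctgtacAGACTgaatgcaatcct

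The Gm31659 position, 95808643, was listed by Nanom6A, m6Anet and ELIGOS in WT and by DiffErr and DRUMMER, while xPore listed it in KO. It lay in soft-masked sequence, that is in a repeat, 91 bases from the 3′ end of a transcript of 338 bases. Snhg5, a host of small nucleolar RNAs, had its Nanocompore position, 88521166, only 18 bases from the 3′ end, with Tombo, Nanom6A and xPore listings in WT and Nanom6A and xPore listings in KO. Genes with a position in at least 2 comparison lists were Cct6a, 1810058I24Rik and Gm31659.

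Positions listed in WT were listed again in KO by the same tool less often in long noncoding RNAs than in coding genes for 4 of the 7 tools. For Tombo, 265 of 555 members were listed again (47.7%, 95% Wilson interval 43.6 to 51.9), beside 59.9% of all its WT positions outside X and Y and 60.0% of those in coding genes (adjusted p = 4.36e-08, Fisher's exact test, two-sided, adjusted over the 7 tools). For Nanom6A the share was 51.3% (135 of 263), beside 65.2% of all and 64.7% of coding positions (adjusted p = 3.4e-05, same exact test). For m6Anet it was 20% (23 of 115), beside 34.3% of all and 34.4% of coding positions (adjusted p = 0.00247, same exact test). For MINES it was 25.3% (22 of 87), beside 40.3% of all and 40.4% of coding positions (adjusted p = 0.00725, same exact test). Overlap read from KO was also lower among members for these 4 tools. Of Tombo KO positions, 265 of 577 members were in WT, against 43371 of 65304 in coding genes. The counts were 135 of 190 against 20465 of 26127 for Nanom6A and 23 of 51 against 7845 of 13210 for m6Anet. For MINES they were 22 of 75 against 5225 of 9079. This direction was not tested. In the WT direction the other tools did not pass. Epinano listed 14.7% of members again (63 of 428), beside 16.5% of all, and the difference from coding genes was -1.79 points (95% interval -4.86 to 1.89). ELIGOS listed 1 of 32 again (3.12%), beside 11.4% of all, with a difference from coding genes of -8.18 points (-10.9 to 4.47), and xPore 2 of 13 (15.4%), beside 24.7% of all, with a difference of -9.18 points (-20.3 to 17.7).

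**Figure D2:**
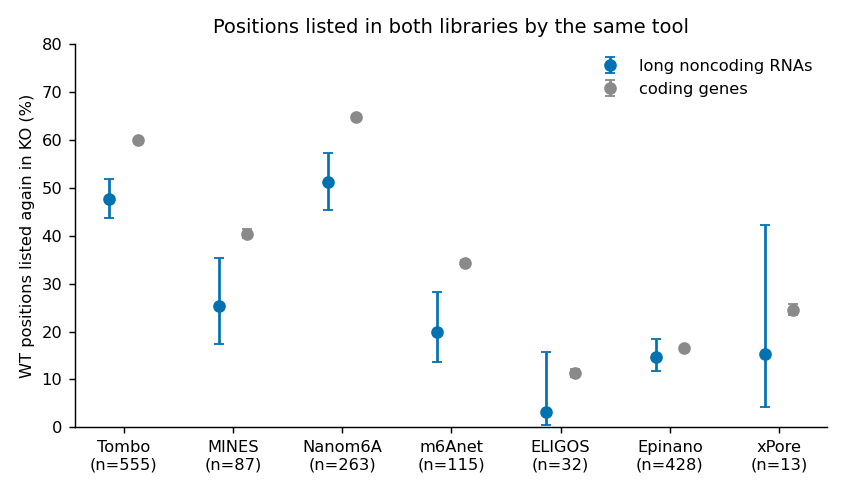
Share of WT positions that the same tool also listed in KO (y axis, %) for the 7 tools with both lists, in long noncoding RNAs and in coding genes. Points are shares, bars are 95% Wilson intervals for counting error, and n is the number of WT positions in long noncoding RNAs. The intervals of Tombo, MINES, Nanom6A and m6Anet lie below the coding points.

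Calls for 3 of the 4 tools were lost when both classes were limited to genes with few positions. With both classes limited to genes of at most 10 listed positions, an alternative chosen after seeing the data, the Tombo share was 44.4% against 49.5% (adjusted p = 0.31), the MINES share 26.5% against 30.7% (adjusted p = 0.708) and the m6Anet share 20% against 34.1% (adjusted p = 0.166, Fisher's exact test throughout), so that among the 7 tools only Nanom6A passed, with 47.8% against 65.4% (adjusted p = 0.00543, same exact test). The m6Anet gap was about as large as before, on fewer positions. Read depth per gene was unknown and its part in the difference was not tested. By type of gene, Tombo listed again 162 of 356 positions in lincRNAs (45.5%), 77 of 125 in processed transcripts (61.6%), 13 of 45 in antisense RNAs (28.9%), 3 of 16 in bidirectional promoter RNAs (18.8%) and 10 of 13 in sense intronic RNAs (76.9%), the last all in Gm48161.

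Number of positions per gene was small. The median was 4 positions, 41 genes had a single one, and the 10 largest genes held 271 positions (18.3%). Merged positions were found in 178 genes and KO positions in 200, with 128 genes in both, 50 only in merged lists and 72 only in KO lists. Of the positions, 577 were in merged lists only (38.9%, beside 32.9% of all positions outside X and Y), 461 in both (31.1%, beside 47.6%) and 446 in KO lists only (30.1%, beside 19.5%). In coding genes these shares were 32.9%, 47.7% and 19.4%. Of the 446 KO-only positions, 382 were listed by 1 tool and 5 by at least 3 tools.

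The genes with most merged positions differed widely in how many of them KO lists also held. Cct6a (chromosome 5, 129786998 to 129846371, plus strand) had 30 merged positions and all 30 were listed in KO by at least 1 of the same tools. Nanom6A alone listed 29 in each library. 1700020I14Rik, known as Cyrano, a conserved RNA involved in microRNA turnover, had 27 merged and 13 KO positions with 10 in both, nearly all from Tombo and Epinano. H19, an imprinted RNA and microRNA host, had 27 merged and 9 KO positions, and all 9 were among the 27. Nanom6A listed 14 H19 positions in WT and 0 in KO, m6Anet 4 and 0, and Tombo 18 and 9. KO lists thus held H19 through Tombo alone. Gas5, a host of small nucleolar RNAs, had 21 merged and 15 KO positions with 14 in both, and Nanom6A listed 10 in WT and 9 in KO. Gm26825, of doubtful strand, had 22 and 15.

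Lncenc1 (chromosome 13, 97434970 to 97497007, plus strand) had 25 merged and 6 KO positions, and all 6 were among the 25. All tools with a Lncenc1 list had fewer positions in KO than in WT. m6Anet listed 18 in WT and 0 in KO, Nanom6A 17 and 0, ELIGOS 7 and 0, Tombo 11 and 5, Epinano 10 and 2, and MINES 4 and 1. Of the 25 positions, 8 were listed by at least 3 tools, the most in any of the 250 genes. Of these, 7 lay between bases 273 and 1092 of a transcript of 2764 bases, in its last exon, and the other at base 2684, 80 bases from the 3′ end. The context was GGACA at 4 of the 8 positions and GGACT at 1 of them.

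**Figure D3:**
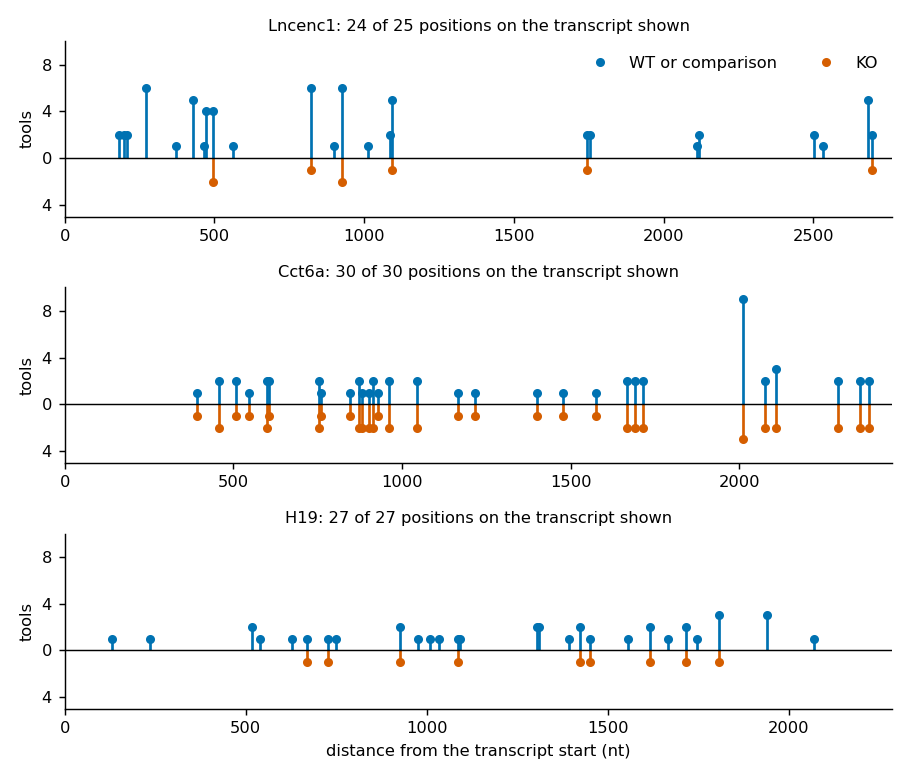
Number of tools listing each position (y axis, merged lists above the line and KO lists below it) along the transcript that holds most positions of Lncenc1, Cct6a and H19 (x axis, distance from the transcript start in nt). Lncenc1 has tall points with few KO marks, Cct6a has a KO mark under every point and a single tall point with 9 tools, and H19 has low points with KO marks from 1 tool each.

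Other genes of the 10 with most merged positions had the following counts. AU020206 had 20 merged and 11 KO positions, Gm807 had 20 and 9, and Brip1os, antisense to the DNA repair gene Brip1, had 19 and 5. 2410018L13Rik went the other way, with 19 merged and 38 KO positions and 17 in both. Its KO listings came from Tombo (26, against 13 in WT), Nanom6A (19, against 0), ELIGOS (12, against 0), MINES (9, against 5) and m6Anet (6, against 0). Epinano ran the other way, with 3 in KO against 7 in WT. Gm5165, which RefSeq types as coding, was similar, with 12 merged and 31 KO positions, 22 of its 33 positions lying in repeats. Gm30948 had 0 merged and 19 KO positions, of which 18 lay in repeats. Each of these 3 genes had more positions in KO than in merged lists, and the part of read number in this was not tested.

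**Figure D4:**
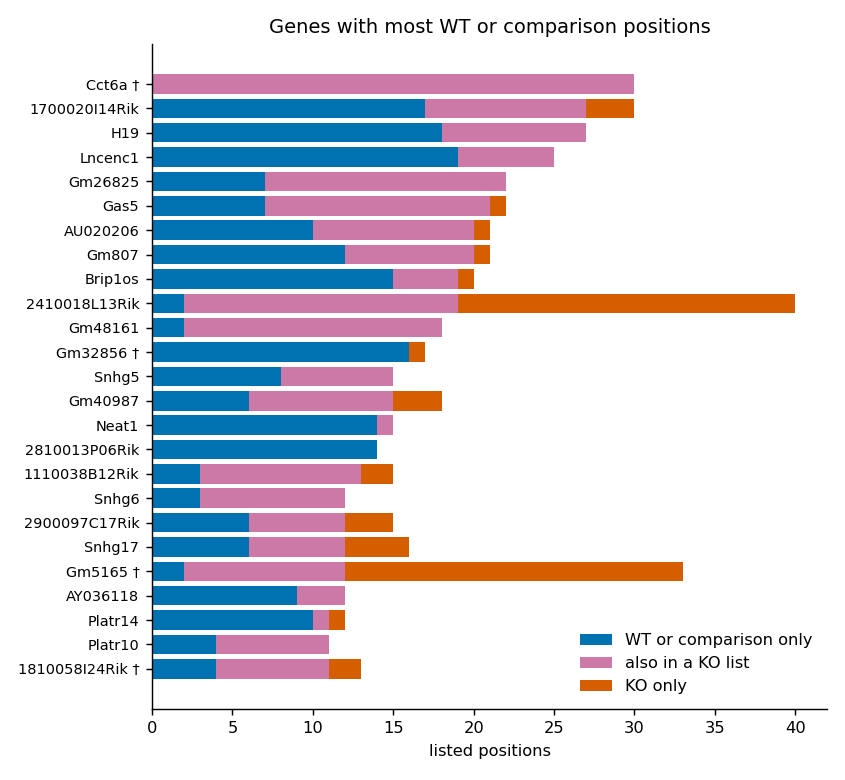
Listed positions (x axis) in the 25 long noncoding genes with most merged positions, split into positions in WT or comparison lists only, in both these and a KO list, and in KO lists only. A dagger marks genes that RefSeq types as protein coding. Cct6a has only shared positions, Neat1 and 2810013P06Rik have nearly or entirely WT-only positions, and 2410018L13Rik and Gm5165 have 21 KO-only positions each.

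Of the 75 long noncoding genes with 5 to 30 merged positions, 12 had 0 KO positions (16.0%, 95% Wilson interval 9.4 to 25.9), beside 5.95% of all such genes. The genes were smaller by this count, with a median of 8 merged positions against 13 in coding genes, so the shares are not like for like and no test was made. A choice by merged positions also leaves out genes listed only in KO. Among all 250 genes, 72 had positions only in KO lists and 50 only in merged lists. 2810013P06Rik had 14 merged positions and 0 in KO, 9 of the 14 listed by 1 tool. Tug1, a conserved RNA of nucleus and cytoplasm, had 11 and 0, with 6 positions listed by 1 tool and 5 by 2 tools. Neat1, the scaffold of paraspeckles, had 15 and 1, from Epinano (11 in WT, 1 in KO) and Tombo (7 in WT, 0 in KO) for the most part. Listings of single tools also switched by gene. Nanom6A listed at least 5 WT positions in 19 long noncoding genes, of which H19, Lncenc1 and Gm32856 had 0 in KO (3 of 19, beside 4.2% of all genes with as many). m6Anet did so in 5 genes, of which Lncenc1, Vax2os and Gm32856 had 0 in KO (3 of 5, beside 9.67% of all). In 4 of the 19 genes every Nanom6A WT position was listed again in KO, namely the 29 of Cct6a, 9 of Gm10076, 7 of Snhg6 and 5 of Zfas1. The other 12 genes had part of them again, from 1 of 9 in Snhg5, 1 of 5 in Ifi30, 3 of 12 in AY036118 and 2 of 5 in Gm26829 to 9 of 10 in Gas5. Among the 19 genes, Gm26825, AY036118, Gm17494 and Gm37335 held only opposite-strand positions, so their strand is doubtful.

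Among known long noncoding RNAs, hosts of small nucleolar RNAs held the most positions, 155 in 16 of 17 annotated genes, with 121 merged and 103 in KO. Tombo listed again 38 of their 66 WT positions (57.6%), beside the 59.9% of all its WT positions. The Tombo share was 46.2% for the stem cell RNAs (18 of 39), 36.4% for the imprinted RNAs (8 of 22), 31.6% for the conserved RNAs (12 of 38) and 9.09% for Malat1 and Neat1 together (1 of 11), and these groups were not tested against each other. Snhg1 had 11 merged and 14 KO positions, Snhg6 had 12 and 9, Snhg17 had 12 and 10, Zfas1 had 6 and 12, and Dancr had 0 and 6. Snhg18 had 5 and 0. Of the RNAs linked to stem cells, 11 of 31 annotated genes had 72 positions, 69 merged and 26 in KO. Besides Lncenc1, Platr14 had 11 merged and 2 KO positions and Platr10 had 11 and 7, of which 7 of 11 lay in repeats. Of the imprinted RNAs, 3 of 6 had positions. Meg3 had 6 merged and 3 KO positions and Rian 4 and 0, beside H19 above. Of 5 RNAs that act in the nucleus, Malat1 and Neat1 had positions, and Miat and the imprinted antisense RNAs Kcnq1ot1 and Airn had none. Malat1, whose mature 3′ end is not polyadenylated, had 4 merged and 4 KO positions with 1 in both, all from Tombo and Epinano. Of the microRNA hosts, Mir17hg had 1 and 4 and Mir124a-1hg 0 and 7. All 4 conserved RNAs had positions, 57 in all. Among them 2900097C17Rik, known as Norad, had 12 and 9, and Pvt1 had 0 and 1.

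Some members were listed in both libraries by the same tool. The paper found KO mRNA almost free of m6A by mass spectrometry, and proposes that false positives prevail among single-sample calls in KO. In all, 417 members were listed in WT and KO by at least 1 same tool (28.1%), beside 44.6% of all positions outside X and Y and 44.6% in coding genes. Of these, 332 were shared by 1 tool (22.4%, beside 35.0% in coding genes), 76 by 2 tools (5.12%, beside 7.98%) and 9 by 3 tools (0.606%, beside 1.63% by 3 or more), the most reached among members. The first 5 of these 9 in genomic order are the Cct6a position shown above and the positions below, which are shown because a listing that persists in cells without Mettl3 is the counterpart of the sites above.
Gas5 (chr1:161036954-161036982, plus strand): taggtgtgttttGGACAacactctgggtt
Snhg15 (chr11:6526355-6526383, minus strand): ggctgtttcgtgGAACTtccaccaaagag
Gm26829 (chr11:22610381-22610409, minus strand): aaattcactgcaGGACAagagtcccagct
Gm10076 (chr14:105681992-105682020, plus strand): tgctgagggccgGGACAagctatcggact

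The Gas5 position, 161036968, was listed in both libraries by Tombo, Nanom6A and Epinano. The Snhg15 position, 6526369, had Tombo, Nanom6A and m6Anet in both, and its context was GAACT, 14 bases from an exon junction. The positions of Gm26829 (22610395) and Gm10076 (105682006) had Tombo, MINES and Nanom6A in both, with m6Anet added in KO for Gm26829. Gm10076, which RefSeq types as a pseudogene, held 3 of the 9 positions on a single-exon transcript of 384 bases, and the part of reads from near-identical copies was not tested.

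Most merged members were listed by 1 tool, with 716 of 1038 (69.0%, 95% Wilson interval 66.1 to 71.7), beside 65.1% of all merged positions and the same share in coding genes. The difference of 3.91 points (1.02 to 6.66) passed Fisher's exact test (adjusted p = 0.0133), but with RRACH contexts only it was 66.5% against 65.0% (adjusted p = 0.513, exact test, with a range of 1.01e-06 to 0.513 over the alternatives). Tombo supplied 289 of the 716, Epinano 248 and Nanom6A 136. Listing by more tools did not go with fewer KO listings, but the measure is partly tied to tool number. A position that more tools list in WT has more tools that can list it again in KO. For sites not found by next-generation sequencing methods, the paper reports less overlap with KO sites as more tools supported them. With 1 tool 40.9% were in any KO list (293 of 716), with 2 tools 51.9%, with 3 tools 51.9%, with 4 tools 46.2% (6 of 13) and with 5 or more tools 62.5% (10 of 16, 38.6 to 81.5). In coding genes the shares were 52.9%, 69.1%, 74.0%, 74.8% and 72.1%.

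**Figure D5:**
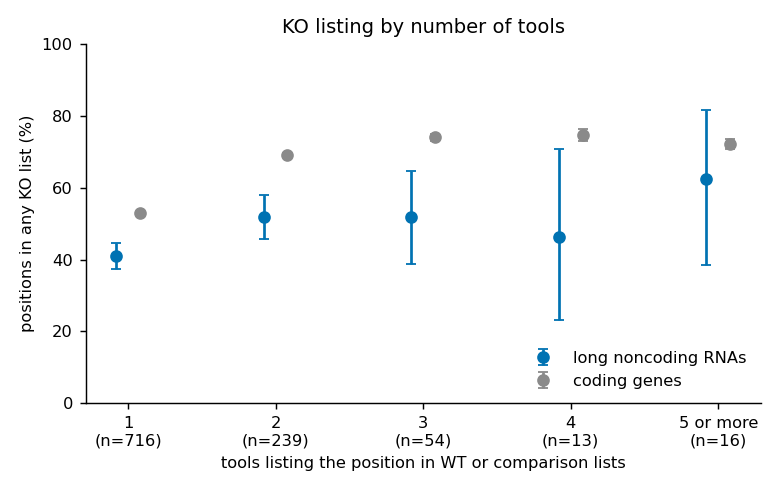
Share of merged positions that were in any KO list (y axis, %) by the number of tools that listed them in merged lists (x axis), for long noncoding RNAs and coding genes. Points are shares, bars are 95% Wilson intervals for counting error, and n counts long noncoding positions. Long noncoding points lie below coding points throughout, and at 4 tools the upper end of the interval is 70.9 against a coding point of 74.8, while at 5 or more tools the interval covers the coding point.

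GGACT was the context of 116 of the 1038 merged members (11.2%), beside 11.9% of all merged positions and 12% in coding genes (difference -0.829 points, 95% interval -2.61 to 1.24, adjusted p = 0.443, Fisher's exact test). In the transcripts that held the members, GGACT made up 7.08% of 8266 RRACH positions. Its share was 8.24% among members listed by 1 tool, 14.6% with 2 tools, 22.2% with 3 tools and 43.8% with 5 or more (7 of 16, 23.1 to 66.8), and the coding shares were 7.11%, 16.2%, 23.1% and 44.8%. Tool number and context are partly tied by construction, since MINES lists sites in only 4 contexts, GGACT among them, and all 87 of its WT members fell in 4 contexts. With MINES left out of the tool count, an alternative chosen after seeing the data, the member shares were 8.66%, 14.2%, 27.5% and 46.7% (7 of 15, 24.8 to 69.9), beside 7.29%, 18.8%, 22.6% and 47.3% in coding genes. The contexts that the other tools were trained on were not tested. GGACA was the most frequent context of merged members (12.8%, beside 14.6% in coding genes). In KO lists AGACA made up 15.8% of members, GGACA 11.8% and GGACT 8.38%, beside 15.0%, 15.3% and 9.79% in coding genes, and these contexts were not tested. These are letters of the genome around the listed base and not a measure of methylation.

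As GENCODE gives these genes no coding sequence, the place of members was set against the end of the transcript and the exon junctions, also for the 24 genes that RefSeq types as coding. The last exon held 65.9% of merged members (95% Wilson interval 63.0 to 68.7), against 52.4% of coding positions. All RRACH positions of the same transcripts had 78.0%, but these transcripts ran from a median of 1200 nt to 93147 nt, and the longest weighed most. With each member weighing its own transcript equally, a comparison added after seeing the data, the RRACH share was 62.7%. These shares count single-exon transcripts as last exon. On multi-exon transcripts only, they were 60.4% for merged members, 51.7% for coding positions and 56.6% for the RRACH positions weighted by member. The median distance to the 3′ end was 632 nt for merged members and 624 nt for KO members, against 683 nt and 720 nt for the RRACH positions weighted in this way (1337 nt when pooled). Within 100 nt of a junction lay 32.7% of merged members on multi-exon transcripts (29.7 to 35.8), against 33.0% of the weighted RRACH positions (24.9% when pooled) and 45.7% of coding positions. Among positions listed by at least 5 tools, 6 of the 16 in Lncenc1, 15 were in the last exon (93.8%, 71.7 to 98.9) and 2 within 100 nt of a junction (12.5%, 3.5 to 36.0, an interval that covers the share of all merged members), beside 87.7% in the last exon and 8.16% near a junction for coding positions with that support. The exception was the Gm26829 position 22610267, in the first of 2 exons.

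Repeats held more of the members than of coding positions, with 335 of 1484 in soft-masked sequence (22.6%, 95% Wilson interval 20.5 to 24.8) against 7.57%. Of the 109 genes with at least 5 positions, 6 had all of them in repeats and 43 had none. Gm48161 had all 18 positions in repeats, Gm32856 had 16 of 17 and Gm20939 had 10 of 11. The part of reads from other copies of these repeats was not tested. Within the members, Tombo listed again 44.9% of WT positions in repeats (48 of 107, 35.8 to 54.3) and 48.4% of the others (217 of 448, 43.8 to 53.1), and these intervals overlapped. Of the 16 positions listed by at least 5 tools, 1 was in a repeat, that of Gm31659.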

How the data were processed

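Native poly(A) RNA of WT and Mettl3 KO cells was sequenced on R9.4.1 flow cells with 1 library each. The authors basecalled with Guppy, aligned to the GENCODE transcriptome with Minimap2, ran each tool and converted positions to the mouse genome. They deposited 17 lists of positions. Per their methods, each tool's cut-off was placed where its F1 scores against miCLIP and miCLIP2 sites, added together, peaked, and a site needed a minimum number of reads, higher for m6Anet. Some deposited lists lie outside the range of site numbers that the paper gives for these cut-offs. Examples are Tombo WT with 73502 and DRUMMER with 1255 positions outside X and Y. The cut-off behind the deposited lists is therefore unknown. The deposited values are positions only, with no score, rate or coverage, so the depth per site is unknown.

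Positions were counted once per chromosome, start and strand. Exons came from GENCODE M21 (the study used an earlier release of the same build, GRCm38), in which 22486 of 22496 listed transcript identifiers were found. Contexts were read from the RefSeq GRCm38 genome. Members, gene lists and rules were chosen with earlier results of these data known. Named were the 10 genes with most merged positions, genes with a position in at least 2 comparison lists, positions listed by at least 6 tools, the first 5 positions shared by most tools between WT and KO, and known long noncoding RNAs. Genes and positions outside this rule, such as 2810013P06Rik, Gm5165 and Gm30948, were named after their values were seen.

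Shares have 95% Wilson intervals, and differences Newcombe intervals, all covering counting error only. The classes were set against each other with Fisher's exact test (two-sided), and p-values were adjusted after Benjamini and Hochberg to a threshold of 0.05. A distance was taken on the listed transcript or, where none was listed, on the longest. The alternatives were the rule for coding exons, other gene types, the largest gene left out, listed names, RRACH contexts only, a match within 5 bp, MINES or Tombo left out, and the longest transcript. Leaving out genes that RefSeq types as coding, limiting genes to at most 10 positions, weighting the RRACH positions by the members on each transcript, and counting tools without MINES for the GGACT shares, were added after seeing the data. The tests were checked on simulated counts drawn as if positions were independent. Such counts cannot show the effect of positions of one gene sharing reads. Python 3.11.15, SciPy 1.17.1, pandas 2.3.3, pysam 0.24.0, samtools 1.23.1 and matplotlib 3.10.9 were used.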

Additional observations from a re-analysis of the deposited data

How the results depend on the processing

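Leaving out the gene with most positions over all lists (2410018L13Rik, 40 positions) or the genes that RefSeq types as coding changed no call among the shares compared. Matching within 5 bp, run for the shares listed again in KO and the share in a comparison list, changed none of these. The share of merged members listed by 1 tool (69.0%) no longer passed with only coding sequence excluding a position (68.1%), without exons of other gene types (68.0%), with listed long noncoding names (66.6%) or with RRACH contexts only (66.5%). The GGACT share turned from below to above coding genes with RRACH contexts only (12.1% against 12%), and neither passed. With genes of at most 10 positions in both classes, 808 members were left, the shares listed again in KO no longer passed for Tombo (44.4%), MINES (26.5%) and m6Anet (20%), and Epinano turned above coding genes (14.9% against 13.7%). The cause was not tested, beyond fewer positions being compared. On the longest transcript, the median distance to the 3′ end was 679.5 nt in place of 632 nt. Weighting the RRACH positions by the members on each transcript moved their last exon share from 78.0% to 62.7%, since long transcripts no longer weighed most. No paired analysis was possible because each condition had 1 library. Depth per site and the cut-off behind each deposited list were unknown, so a position missing from a list is not shown to be unmethylated.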
